A study of Mus musculus with 16 samples.

Results

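The comparison described here is between cultured organs of Corti that carried a Rest mutation and received the deacetylase inhibitor FK228, and cultures of normal genotype that received solvent alone. It used 8 of the 16 RNA-seq libraries of the series, 4 on each side, chosen by the genotype and the compound exposure in the labels. The organ of Corti is the sensory epithelium of the cochlea, and the cultures were prepared from C57BL/6 mice of postnatal day 0. One side was heterozygous for a Rest allele without exon 4, written Rest(+/deltaExon4), and was exposed to 2 nM FK228. The other side was wild type and was exposed to 0.1% DMSO. Both sides were exposed between days 1 and 1.5 of culture and again between days 3 and 3.5, when RNA was taken. For each library, RNA of 6 to 8 cultures was combined. Whether the pools of a group stem from different litters is not recorded in the labels, and every p-value therefore measures the spread between these pools. The 4 heterozygous solvent and the 4 wild-type FK228 libraries were used to estimate the spread between libraries, and their values are given where they show what the mutation or the drug does alone. Treated heterozygous cultures are abbreviated Het FK228 and untreated wild-type cultures WT solvent. Het FK228 libraries carry the replicate numbers 2 to 5 and WT solvent libraries 1 to 4, and values of single libraries are given in that order.

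REST is a zinc finger repressor that binds RE1 elements near neuronal genes and brings in corepressors, among them class I histone deacetylases. In neurons and hair cells, inclusion of exon 4 of Rest shifts the reading frame and inactivates the protein. FK228, also called romidepsin, is a cyclic peptide that inhibits class I histone deacetylases. The comparison asks how far drug-treated mutant cultures stay from the normal untreated state.

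Gene counts ranged from 12361027 to 14153838 in Het FK228 and from 17462876 to 23611571 in WT solvent, so the Het FK228 libraries were shallower throughout. ERCC spike-in RNA made up 0.350% ± 0.0347 of counts in Het FK228 and 0.178% ± 0.0175 in WT solvent (mean ± SD, n = 4 each). It made up 0.165% to 0.232% in heterozygous solvent and 0.182% to 0.237% in wild-type FK228 libraries, below every Het FK228 library. Reads in no gene made up 18.2% ± 1.03 in Het FK228 and 14.9% ± 2.73 in WT solvent. Each of these 3 measures separated the groups without overlap (exact permutation, two-sided, p = 0.0286, the smallest this design allows, adjusted p = 0.0476 over 5 measures). The mitochondrial share (0.260% and 0.236%) and Y-linked reads (135.2 and 90.4 CPM) did not pass (exact permutation, adjusted p = 0.0714 and 0.457). Het FK228 replicate 4 had 222.3 CPM of Y-linked reads, the most of the 8 libraries. WT solvent replicate 4 had none, so the sex mix differed between pools. WT solvent replicate 1 was the deepest library and had the lowest share of reads in no gene, 10.8%. The defining markers of hair cells, supporting cells, neurons, Schwann cells, macrophages, mesenchyme, endothelium and melanocytes were present in all 8 libraries. A row for the CRE-ERT2 transgene held 6 to 11 reads in each Het FK228 library and 0 in each WT solvent library, and the labels name no such transgene.

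Because spike-in RNA took a larger share in Het FK228, scaling to spike-in totals instead of to the bulk of genes moved the median log2 difference of all 17125 tested genes from -0.00473 to -0.89. The log2 differences given here are relative to the bulk of genes (TMM scaling), and spike-in values are given where they change a direction. Each count of list members with spike-in scaling is to be read against 3.78% of all genes called higher and 71.3% called lower under that scaling. For list counts with TMM scaling those shares are 24.9% and 25.9%, and 30.9% of all genes had a 95% interval within 1.5-fold. Levels are counts scaled to library size with TMM factors (CPM), which compare libraries and not genes of different length.

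The Rest gene itself (chromosome 5, 77265491 to 77286432, GRCm38) had 87.3, 81.1, 79.7 and 75.8 CPM in Het FK228 and 85.5, 78.6, 75.2 and 86.4 CPM in WT solvent. The groups overlapped fully. The log2 difference was -0.01 ± 0.08 (SE), with an edgeR adjusted p of 0.942, and it was -0.88 with spike-in scaling. These counts cover the whole gene and do not test whether exon 4 is missing.

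Treated heterozygous cultures differed from untreated wild type at 8690 genes by edgeR's quasi-likelihood test (Benjamini-Hochberg adjusted p under 0.05), which is 50.7% of those tested. As shares of all tested genes, 4258 were higher (24.9%) and 4432 lower (25.9%), whereas with spike-in scaling 647 were higher (3.78%) and 12217 lower (71.3%). Most differences were small: the median absolute log2 difference was 0.437, and 1119 genes (6.53%) were called beyond 2-fold by edgeR's glmTreat, 539 higher (3.15%) and 580 lower (3.39%). Genes that were called with an estimated difference of at least 2-fold numbered 3004 (17.5% of those tested), and with at least 4-fold 833 (4.86%). At the other end, 5291 genes (30.9%) had a 95% interval wholly within 1.5-fold of WT solvent, and 1347 genes (7.87% of those tested) were both within 1.5-fold and called. A further 4491 genes (26.2%) were neither called nor placed within 1.5-fold, so the data do not locate them. The 8 libraries fell into 2 groups without overlap at 7821 genes (45.7%), which is the background for each gene named below whose groups did not overlap. The share placed within 1.5-fold followed the level: 0% of genes under 1 CPM, 8.91% between 1 and 10 CPM, 46% between 10 and 100 CPM and 62.9% above 100 CPM. With spike-in scaling 768 genes were placed within 1.5-fold and 3927 beyond 2-fold.

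For comparison in the same fit, 347 genes (2.03%) differed between heterozygous and wild-type cultures in solvent, 1.2% of all genes higher and 0.823% lower. Between heterozygous cultures with and without FK228, 8297 (48.4%) differed, 23.8% higher and 24.7% lower. For each gene the log2 difference between Het FK228 and WT solvent is the sum of these 2 log2 differences, and all contrasts share libraries. In wild-type cultures 8394 genes (49%) differed between FK228 and solvent, 23.7% higher and 25.3% lower.

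The distance of single libraries from WT solvent was measured as the median absolute difference in log2 CPM. Over all genes tested it was 0.455 ± 0.0185 in Het FK228, 0.206 ± 0.022 in heterozygous solvent and 0.434 ± 0.0328 in wild-type FK228 libraries, against 0.182 ± 0.025 for a WT solvent library set against the other 3 (mean ± SD, n = 4). The Het FK228 range of 0.43 to 0.471 lay above all heterozygous solvent libraries, which reached 0.225, and overlapped that of wild-type FK228 libraries. The order was different for 15 genes that an earlier account of these libraries reported as lower in heterozygous solvent cultures. There the distance was 2.41 ± 0.168 in heterozygous solvent and 1.32 ± 0.223 in Het FK228 libraries, against 0.338 ± 0.141 among WT solvent libraries. Those genes were chosen from these same heterozygous solvent and WT solvent libraries. Het FK228 is set against the same WT solvent libraries, so both distances, and the step between them, are a description only.

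**Figure D1:**
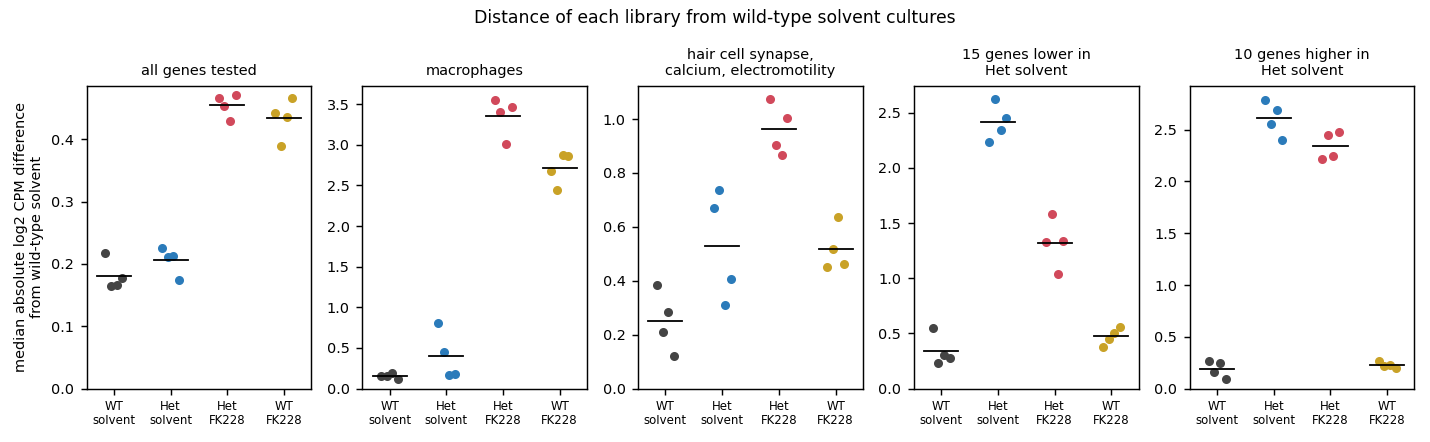
Distance of each of the 16 libraries from wild-type solvent cultures, as the median absolute log2 CPM difference over all genes tested, macrophage genes, hair cell synapse genes, and the genes lower or higher in heterozygous solvent cultures. Points are libraries and lines are means of 4; over all genes the Het FK228 libraries sit between 0.43 and 0.471, and over the 15 genes lower in heterozygous solvent cultures between 1.04 and 1.59, below every heterozygous solvent library and above every WT solvent library.

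Of the 15 genes lower in heterozygous solvent cultures, 10 were lower in Het FK228 than in WT solvent, 1 was higher and 4 were not called. Over all genes 25.9% were lower and 24.9% higher. The WT solvent libraries also served to choose the 15, so these counts are a description only. The median log2 difference of the 15 was -1.25, beside -0.00473 over all genes. It was -2.68 between heterozygous and wild-type cultures in solvent. With spike-in scaling 14 were lower and none higher. In wild-type cultures 3 of the 15 were higher with FK228 than in solvent, 3 lower and 9 not called. Over all genes those shares were 23.7% higher and 25.3% lower. None of the 15 had a 95% interval wholly within 1.5-fold of WT solvent, where 30.9% of all genes did with TMM scaling. Most of the 15 had a mean level between 1 and 10 CPM, where that share was only 8.91%. Their count within 1.5-fold therefore says little about their distance from WT solvent.

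The synaptic vesicle fusion gene Snap25, a SNARE protein, was among the 4 not called. It had 21.8, 19.9, 22.9 and 23.8 CPM in Het FK228 and 27.9, 19.3, 13.7 and 12.99 CPM in WT solvent. All Het FK228 values lay within the WT solvent range, while heterozygous solvent libraries had 0.909, 2.75, 2.02 and 2.05 CPM. The log2 difference from WT solvent was 0.25 ± 0.22 (edgeR adjusted p = 0.358; 95% interval -0.21 to 0.71), and it was -0.60 with spike-in scaling (adjusted p = 0.00939). Without WT solvent replicate 1, the highest of its group, Snap25 was called higher, by 0.52 (adjusted p = 0.0373). Between heterozygous cultures with and without FK228 the log2 difference was 3.50 (edgeR adjusted p = 1.28e-08). Between wild-type cultures with and without FK228 it was 1.39 (edgeR adjusted p = 4.22e-05). Wild-type FK228 libraries had 40.9 to 61.4 CPM, above every WT solvent and every Het FK228 library.

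Atp2a3, which encodes the SERCA3 calcium pump of the endoplasmic reticulum, had 6.35, 7.38, 6.01 and 7.79 CPM in Het FK228 and 12.8, 8.14, 7.85 and 10.3 CPM in WT solvent. Every Het FK228 library was below every WT solvent library, by little, and heterozygous solvent libraries had 0.137 to 0.917 CPM. The log2 difference from WT solvent was -0.51 ± 0.22 and missed the threshold (edgeR adjusted p = 0.0593); it passed without WT solvent replicate 2 (adjusted p = 0.0479) or 3 (0.0418), with DESeq2 (0.0229), with the 8 libraries fitted alone (0.0347) and with spike-in scaling (log2 difference -1.37, adjusted p = 3.25e-05). Nefh, the heavy neurofilament subunit, differed by -0.14 ± 0.26 (edgeR adjusted p = 0.662) and Lhfpl4, a partner of inhibitory neurotransmitter receptors, by -0.37 ± 0.20 (adjusted p = 0.134). The groups overlapped for both. Lhfpl4 was called lower without WT solvent replicate 2 (log2 difference -0.51, adjusted p = 0.0485).

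Syp, the vesicle membrane protein synaptophysin, was the member called higher. It had 6.96, 8.20, 7.97 and 6.22 CPM in Het FK228 and 5.74, 5.23, 4.99 and 4.20 CPM in WT solvent, without overlap. The log2 difference of 0.54 ± 0.22 passed narrowly (edgeR adjusted p = 0.0476). It missed the threshold without Het FK228 replicate 2, 3 or 4 or WT solvent replicate 2, 3 or 4 (adjusted p 0.0643 to 0.122). It also missed with no filter (adjusted p = 0.0665), with the sex mix (0.0848) or the share of reads in no gene (0.0699) as a covariate, and with spike-in scaling, where it was -0.34. Between wild-type cultures with and without FK228 the log2 difference of Syp was 1.23 (edgeR adjusted p = 0.00013). Wild-type FK228 libraries had 9.30 to 13.5 CPM.

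Cplx1, a complexin that clamps and promotes vesicle fusion, stayed far below wild type. It had 0.907, 0.758, 2.16 and 1.02 CPM in Het FK228 against 19.0, 10.5, 11.4 and 9.08 CPM in WT solvent, and 0.28 to 0.917 CPM in heterozygous solvent libraries. Every WT solvent library was several times above the highest Het FK228 library. The log2 difference from WT solvent was -3.35 ± 0.34 (edgeR adjusted p = 2.26e-07), beside -4.43 in heterozygous solvent cultures. Golga7b, Nrsn1 and Gdap1 were also lower, with log2 differences of -3.00, -2.88 and -2.38 (edgeR adjusted p = 4.55e-06, 3.67e-06 and 1.71e-06). Gdap1 encodes a mitochondrial outer membrane protein of neurons.

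Chgb and Scg3, of the granins of dense-core vesicles, had mean levels between those of heterozygous solvent and WT solvent. Chgb, chromogranin B, had 3.33, 4.76, 3.85 and 4.33 CPM in Het FK228, 17.1, 9.13, 8.53 and 12.2 CPM in WT solvent, and 1.05 to 2.31 CPM in heterozygous solvent libraries. The 3 sets of libraries did not overlap. Chgb differed from WT solvent by a log2 value of -1.53 ± 0.23 (edgeR adjusted p = 2.91e-05) and Scg3, secretogranin III, by -1.25 ± 0.26 (adjusted p = 0.000639). The neuronal splicing factor Rbfox3 and the calcium buffer Pvalb were lower by log2 values of -1.07 and -1.02 (edgeR adjusted p = 0.00167 and 0.000887).

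Otof and Cabp2, which act at hair cell synapses, had their lowest means in Het FK228. Otof, otoferlin, the calcium sensor for vesicle release at inner hair cell ribbon synapses, had 15.2, 15.9, 14.5 and 18.7 CPM in Het FK228. WT solvent libraries had 79.9, 56.9, 63.3 and 68.6 CPM, and heterozygous solvent libraries 24.8 to 32.8 CPM. The treated mutant libraries were the lowest of the 3 groups, with no overlap. The log2 difference of Otof from WT solvent was -2.07 ± 0.12 (edgeR adjusted p = 3.49e-10), 23.9% of the WT solvent level. Cabp2, a calcium-binding regulator of hair cell calcium channels, had at most 0.338 CPM in Het FK228 and at least 1.27 CPM in WT solvent, a log2 difference of -3.45 ± 0.45 (edgeR adjusted p = 4.49e-06). Between heterozygous cultures with and without FK228 the difference of Cabp2 was not called (log2 -0.83, edgeR adjusted p = 0.204).

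**Figure D2:**
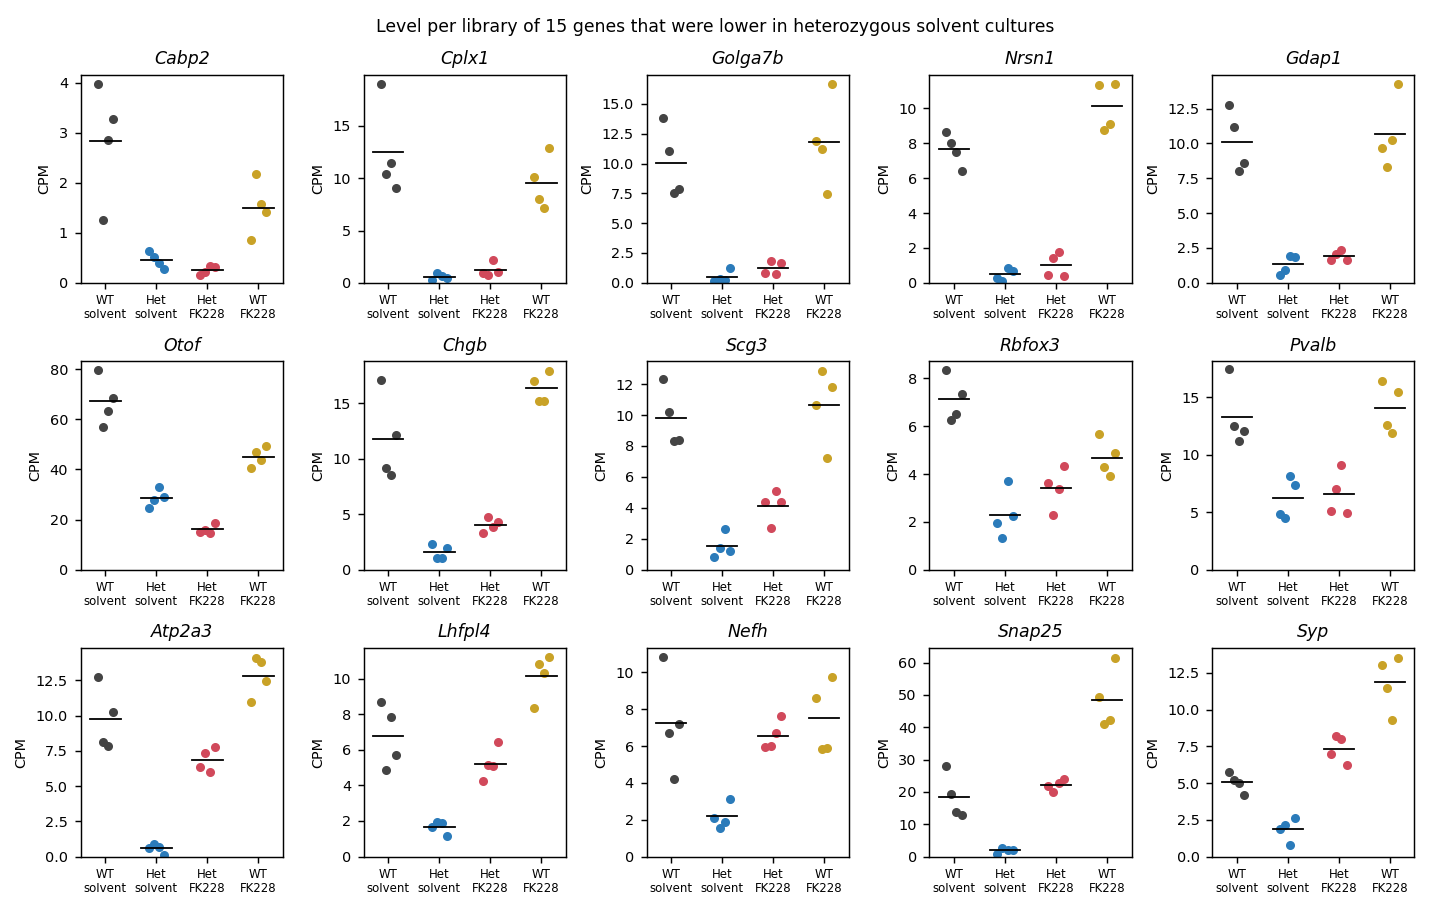
CPM per library of the 15 genes that were lower in heterozygous solvent cultures, in the 4 groups of 4 libraries, on a linear axis for each gene. Points are libraries and lines are group means; the Het FK228 libraries of Snap25 (19.9 to 23.8 CPM) lie among the WT solvent libraries, and those of Cplx1 (0.758 to 2.16 CPM) and Otof (14.5 to 18.7 CPM) lie below all of them.

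All 10 genes that the same earlier account reported as higher in heterozygous solvent cultures were also higher in Het FK228. Their median log2 difference was 2.32, beside 2.62 in heterozygous solvent cultures. Over all genes 24.9% were higher. The WT solvent libraries also served to choose these 10, so their values are a description only. With spike-in scaling 9 of the 10 were higher and Tsn was lower. Tmem163, a zinc-transporting membrane protein of synaptic vesicles, had 47.9, 51.0, 61.0 and 51.7 CPM in Het FK228, 0.452 to 0.919 CPM in WT solvent and 80.3 to 93.3 CPM in heterozygous solvent libraries. Wild-type FK228 cultures had a mean of 0.791 CPM, so only heterozygous libraries carried the transcript at a high level. Tmem163 differed from WT solvent by a log2 value of 6.27 ± 0.19 (edgeR adjusted p = 5.92e-14). Mal2, a membrane trafficking protein, differed by 3.55, the kinase gene Hipk1 by 2.71 and Fam219b by 1.92. The exchange factor genes Vav3 and Arhgef11 differed by 1.82 and 1.56. Rps3a3 differed by 6.52, Tpm3-rs7 by 3.35 and Rps3a2 by 1.61; these resemble a ribosomal protein gene or tropomyosin, and reads shared with the parent gene could be split among copies, so their values are uncertain. Tsn, a nucleic acid binding protein, was called but within 1.5-fold, at 0.26 ± 0.06 (edgeR adjusted p = 0.00123), and its difference was -0.63 with spike-in scaling.

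**Figure D3:**
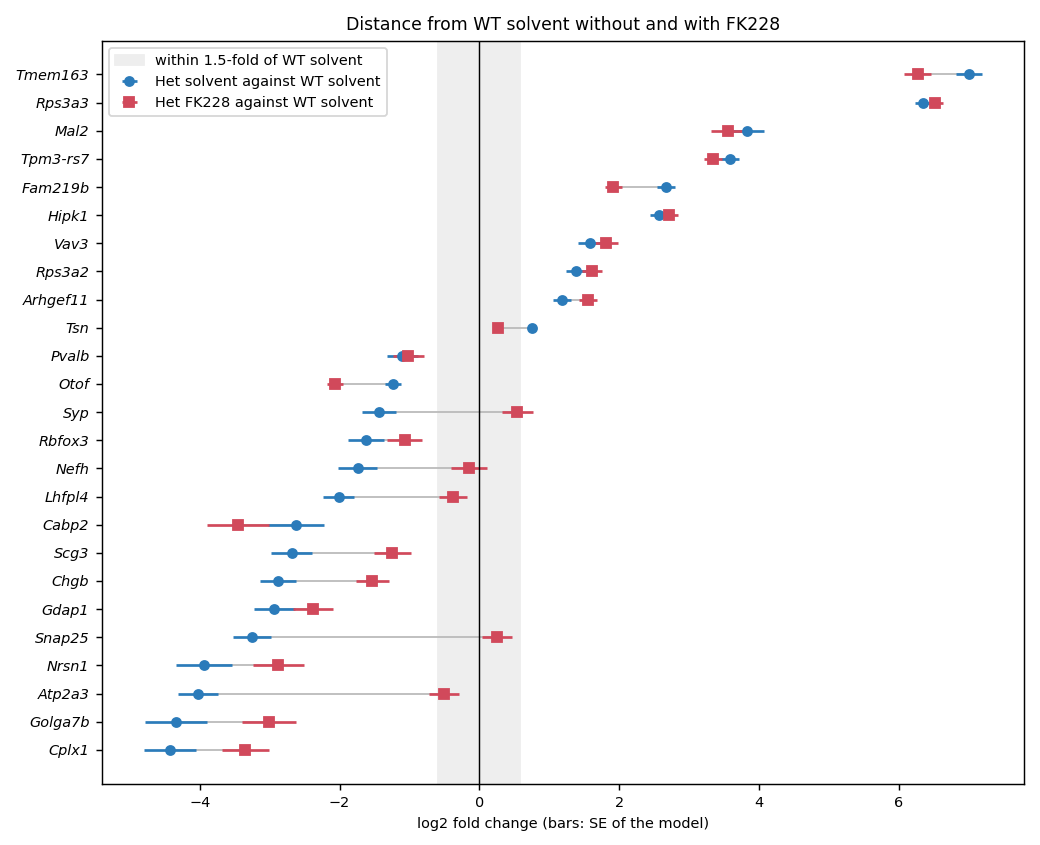
Log2 difference from WT solvent, with the SE of the model, of the genes reported as lower or higher in heterozygous solvent cultures: heterozygous solvent (circles) and Het FK228 (squares), with the band within 1.5-fold shaded. Both sets of points are set against the same 4 WT solvent libraries. Snap25, Syp, Nefh, Lhfpl4, Atp2a3 and Tsn have Het FK228 points inside the band. Of these genes only Tsn has its whole 95% interval there. The Het FK228 points of Otof and Cabp2 lie below those of heterozygous solvent.

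Neuronal genes known as REST targets made up a wider list of 40, of which 35 were tested. In Het FK228, 16 were higher than in WT solvent, 6 lower and 13 not called, with a median log2 difference of 0.26. Those are shares to be read against 24.9% and 25.9% of all genes. With spike-in scaling 4 were higher and 17 lower, and the median was -0.60. In heterozygous solvent cultures none was called higher and 13 were called lower, and 3 had an interval within 1.5-fold in Het FK228.

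Promoter sequences of the REST targets were read from the RefSeq promoter table (GRCm38.p6) for the RE1 core, which is CAGCACC, then any 2 bases, then GGACAG, on either strand. The exact core stood in 0 of 24 REST targets with a promoter in the table, and in 11 of 27025 genes (0.041%). With up to 2 mismatches it stood in 4 of 24 (16.667%) and in 599 of 27025 genes (2.216%), and in 0 of 11 of the genes lower in heterozygous solvent cultures. Beside 2.216% over all genes, 0 of 11 cannot show that these genes lack the core. Only bases close to each gene start were read, so sites farther away were not searched. Of the 4 REST targets with a match, Grin1 was not tested for expression. The 250 bases before the start of the other 3 are printed because they hold the match at 1 mismatch each beside a higher level in Het FK228, and the match is in capitals. The positions are chr9:108825795-108826044 (plus strand) for Celsr3, chr3:80802836-80803085 (minus strand) for Gria2 and chrX:20920919-20921168 (minus strand) for Syn1. In Gria2 the core reads on the strand opposite to the gene. A match is a run of letters and not a measured binding site.
Celsr3: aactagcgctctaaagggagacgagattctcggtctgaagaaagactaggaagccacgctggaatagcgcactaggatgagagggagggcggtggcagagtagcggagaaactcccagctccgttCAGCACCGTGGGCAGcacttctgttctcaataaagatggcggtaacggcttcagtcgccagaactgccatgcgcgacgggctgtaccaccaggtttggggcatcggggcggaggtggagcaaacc
Gria2: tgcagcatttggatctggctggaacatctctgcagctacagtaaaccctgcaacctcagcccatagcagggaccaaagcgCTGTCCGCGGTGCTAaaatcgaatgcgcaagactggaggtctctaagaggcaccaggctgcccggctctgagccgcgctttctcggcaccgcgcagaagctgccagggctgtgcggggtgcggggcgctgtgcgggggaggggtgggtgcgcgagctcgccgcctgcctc
Syn1: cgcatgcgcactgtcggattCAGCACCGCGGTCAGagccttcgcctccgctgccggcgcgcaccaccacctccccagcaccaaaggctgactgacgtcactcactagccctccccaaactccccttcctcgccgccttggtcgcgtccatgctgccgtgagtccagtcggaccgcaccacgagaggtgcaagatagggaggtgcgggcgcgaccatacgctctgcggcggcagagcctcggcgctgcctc

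These 3 genes were picked after their values were seen. Gria2, an AMPA receptor subunit, had 3.55, 4.96, 5.41 and 4.88 CPM in Het FK228 and 0.385 to 1.22 CPM in WT solvent, a log2 difference of 2.51 ± 0.41 (edgeR adjusted p = 5.19e-05). Its groups did not overlap. Syn1, the vesicle phosphoprotein synapsin I, differed by 1.50 ± 0.48 (edgeR adjusted p = 0.0135). Celsr3, an adhesion receptor in axon guidance, differed by 1.70 ± 0.47 (edgeR adjusted p = 0.006), and its groups overlapped, with Het FK228 replicate 4 at 0.946 CPM.

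Among REST targets chosen by their p-values, Stx1a, the SNARE partner of Snap25, differed by 1.20 ± 0.12 (edgeR adjusted p = 2.18e-07), and this was 0.32 and not called with spike-in scaling. Dpysl3, a cytoskeletal protein of growing axons, was lower by -1.47 ± 0.10 (edgeR adjusted p = 3.4e-09). The calcium buffer Calb1 had 372 to 520 CPM in Het FK228 and 423 to 579 CPM in WT solvent, with a difference of -0.11 ± 0.19 (edgeR adjusted p = 0.639).

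Of 31 genes of vesicle release tested, 11 were higher in Het FK228, 3 lower and 17 not called, with a median log2 difference of 0.23; with spike-in scaling 2 were higher and 18 lower. The shares over all genes were 24.9% higher and 25.9% lower, and 3.78% and 71.3% with spike-in scaling. Syngr3, synaptogyrin 3 of the vesicle membrane, had 75.0, 71.7, 71.5 and 69.5 CPM in Het FK228 and 17.5, 8.58, 8.47 and 9.19 CPM in WT solvent. The WT solvent libraries agreed closely except replicate 1, and all lay far below Het FK228. Syngr3 differed by 2.70 ± 0.17 (edgeR adjusted p = 1.22e-09).

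Cplx2, the second complexin of the cochlea, was lower, like Cplx1 and unlike Syngr3. It had 45.2, 50.2, 45.6 and 45.6 CPM in Het FK228 and 281.8, 288.1, 298.4 and 239.9 CPM in WT solvent, without overlap. Its log2 difference was -2.57 ± 0.08 (edgeR adjusted p = 5.92e-14), 16.8% of the WT solvent level. Heterozygous solvent cultures had a mean of 238 CPM, a log2 difference of -0.22 from WT solvent, beside -4.43 for Cplx1. The remaining lower gene was Cadps, which primes dense-core vesicles, at -1.89 (edgeR adjusted p = 0.00282), chosen after its value was seen. Syt1, the calcium sensor of fast release in neurons, had an interval within 1.5-fold (0.25 ± 0.14, edgeR adjusted p = 0.159; -0.63 with spike-in scaling). It was called higher with the share of reads in no gene as a covariate (0.48, adjusted p = 0.000693) and with limma voom (0.32, adjusted p = 0.0365).

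Granins and dense-core vesicle genes gave 3 higher and 5 lower of 13 tested, with a median log2 difference of -0.39 and none placed within 1.5-fold. Over all genes 24.9% were higher, 25.9% lower and 30.9% within 1.5-fold. With spike-in scaling 1 of the 13 was higher and 8 were lower. Pcsk1n, an inhibitor of a prohormone convertase, differed by 2.74 ± 0.39 (edgeR adjusted p = 1.5e-05), from a WT solvent level of at most 1.03 CPM. The convertase gene Pcsk2 and the peptide amidating enzyme gene Pam were lower, by -1.08 and -0.53 (edgeR adjusted p = 1.71e-05 and 2.81e-05). Chga, chromogranin A, which was chosen after its values were seen, had 20.7, 29.9, 33.7 and 20.1 CPM in Het FK228 and 16.04, 12.1, 12.7 and 8.73 CPM in WT solvent. It was higher without overlap, by 1.07 ± 0.26 (edgeR adjusted p = 0.00215), where its relative Chgb was lower. The other members called were Scg5, a chaperone of Pcsk2, at 1.14 and the carboxypeptidase gene Cpe at -0.51, both also chosen after their values were seen (edgeR adjusted p = 0.000465 and 0.00063).

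Spiral ganglion neurons, which carry signals from hair cells to the brainstem, gave 7 genes higher and 8 lower of 23 tested (median log2 difference 0.05; 4 higher and 14 lower with spike-in scaling), shares near the 24.9% and 25.9% of all genes. Pou4f1, a transcription factor of sensory neurons, had 79.0, 87.2, 72.4 and 96.2 CPM in Het FK228 and 9.54, 9.19, 10.4 and 8.39 CPM in WT solvent. All Het FK228 libraries were far above all WT solvent libraries, and heterozygous solvent libraries had a mean of 9.95 CPM. Pou4f1 differed by 3.16 ± 0.14 (edgeR adjusted p = 1.21e-11). The microtubule-associated genes Mapt and Map2 differed by 2.31 ± 0.17 and 1.23 ± 0.13 (edgeR adjusted p = 6.72e-09 and 2.65e-07), and Map2 was not called with spike-in scaling. Ntrk2, the receptor of brain-derived neurotrophic factor, was lower, by -1.65 ± 0.17 (edgeR adjusted p = 2.37e-07). The transcription factor gene Isl1 had an interval within 1.5-fold, at 0.05 ± 0.13 (edgeR adjusted p = 0.763), which was -0.82 with spike-in scaling and 0.26, called, with the share of reads in no gene as a covariate (adjusted p = 0.0278).

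Hair cell genes were followed in 3 lists, each with more members lower than higher in Het FK228 under both scalings. In bulk cultures, fewer cells of a type and less RNA per cell cannot be told apart, here and for every cell type that follows. Among hair cell transcription factors 4 of 7 tested were lower and none higher (median log2 difference -0.89). Pou4f3, needed for hair cell survival, had 19.2, 22.6, 23.4 and 18.0 CPM in Het FK228 and 39.9, 29.9, 29.7 and 33.3 CPM in WT solvent. The groups did not overlap, and the difference was -0.67 ± 0.16 (edgeR adjusted p = 0.0017). Lhx3 differed by -2.25, Gfi1 by -1.75 and the RNA-binding protein gene Rbm24 by -0.89 (edgeR adjusted p = 2.89e-05, 0.00202 and 0.00525). Ikzf2, a regulator of outer hair cells, was placed within 1.5-fold at -0.11 ± 0.12 (edgeR adjusted p = 0.485).

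Of 27 genes of the hair bundle and mechanotransduction, 15 were lower and 4 higher, with a median of -0.72; with spike-in scaling 23 were lower and 2 higher. Grxcr2, a stereocilia protein, had 2.27, 2.28, 2.91 and 2.60 CPM in Het FK228 and 13.1, 8.80, 10.3 and 12.2 CPM in WT solvent. That is a difference of -2.14 ± 0.26 (edgeR adjusted p = 2.08e-06) without overlap. Lhfpl5, a subunit of the transduction complex, and Clrn1, an Usher syndrome gene, each differed by -1.30 (edgeR adjusted p = 3.3e-05 and 5.18e-05). Adgrv1, the very large ankle link receptor, went the other way. It had 9.45, 10.6, 8.04 and 7.71 CPM in Het FK228 and 1.94 to 3.03 CPM in WT solvent, a difference of 1.80 ± 0.25 (edgeR adjusted p = 1.06e-05). Myo6, an unconventional myosin of hair cells, overlapped between groups. Its difference of 0.27 ± 0.10 passed narrowly (edgeR adjusted p = 0.0308), and the call was lost without Het FK228 replicate 3 or 5 or WT solvent replicate 2 or 3 (adjusted p 0.0647 to 0.102). With spike-in scaling the Myo6 difference was -0.61. The other higher genes were Ush1g at 2.62 and Whrn at 1.28, scaffold proteins of the bundle chosen after their values were seen (edgeR adjusted p = 0.000532 and 0.00175).

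Genes of the hair cell synapse, calcium handling and electromotility gave 11 lower and 1 higher of 18, with a median of -0.92 (17 lower and 1 higher with spike-in scaling). In heterozygous solvent cultures 4 were lower. The higher gene, chosen after its value was seen, was Bsn, the active zone scaffold bassoon, at 2.09 ± 0.48 (edgeR adjusted p = 0.00134). Apart from Otof and Cabp2, Ctbp2, whose product RIBEYE builds the synaptic ribbon, had 21.5, 24.3, 25.5 and 28.4 CPM in Het FK228 and 37.9, 49.4, 49.6 and 45.4 CPM in WT solvent. Ctbp2 differed by -0.87 ± 0.12 (edgeR adjusted p = 1e-05); it also encodes a general corepressor, and these counts do not separate the transcripts. Atp2b2, the calcium pump of stereocilia, differed by -0.85 ± 0.11 (edgeR adjusted p = 5.47e-06). The distance of this list from WT solvent was 0.963 ± 0.0946 in Het FK228, 0.531 ± 0.205 in heterozygous solvent and 0.516 ± 0.085 in wild-type FK228 libraries (SD, n = 4). Het FK228 libraries reached 0.868 to 1.08, above every library of the other groups. Because Otof and Cabp2 are on this list and were chosen from these same libraries, these counts and distances are a description only.

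Supporting cell genes gave 9 lower and 1 higher of 24, a median of -0.37, and 7 placed within 1.5-fold; with spike-in scaling all 24 were lower, where 71.3% of all genes were. The single higher gene was Tectb, a tectorial membrane protein chosen after its value was seen, at 0.36 ± 0.15 (edgeR adjusted p = 0.0499). That call was lost without any 1 of 6 libraries, Het FK228 replicates 2 to 5 and WT solvent replicates 2 and 3. Gjb6, the gap junction protein connexin 30, had 50.3, 48.5, 53.9 and 43.9 CPM in Het FK228 and 163.8, 129.6, 116.4 and 137.8 CPM in WT solvent. All Het FK228 libraries lay below all WT solvent libraries, by -1.48 ± 0.20 (edgeR adjusted p = 8.95e-06). Sox2 and Fgfr3, which mark supporting cells and their progenitors, differed by -1.12 and -1.03 (edgeR adjusted p = 3.83e-06 and 0.000199). Sox9, a transcription factor of the same cells, had 1427 to 1785 CPM in Het FK228 and 1448 to 1745 CPM in WT solvent, a difference of -0.00 ± 0.08 (edgeR adjusted p = 0.983; -0.89 with spike-in scaling).

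Of the lists compared, macrophage genes had the largest median difference in size. All 16 were lower in Het FK228, under spike-in scaling as well, with a median of -3.42 beside a background of 25.9% called lower. Their summed level was 44.1 to 60.1 CPM in Het FK228 and 543.5 to 633.8 CPM in WT solvent. Heterozygous solvent libraries held 360.9 to 541.4 CPM and none of the 16 was called there, and wild-type FK228 libraries held 64.0 to 81.2 CPM. Lyz2, lysozyme, had 12.0, 13.4, 9.80 and 11.3 CPM in Het FK228 and 230.8, 217.4, 191.1 and 159.1 CPM in WT solvent, a difference of -4.10 ± 0.25 (edgeR adjusted p = 5.8e-10). Csf1r, the colony-stimulating factor receptor that macrophages need, differed by -3.65, the complement gene C1qa by -3.46 and the lysosomal gene Cd68 by -2.66 (edgeR adjusted p = 7.71e-08, 2.8e-10 and 1.05e-09).

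Mesenchyme genes gave 12 lower and 1 higher of 17 (median -0.57; 16 lower with spike-in scaling). The summed level was 3406 to 3960 CPM in Het FK228 and 5229 to 6412 CPM in WT solvent, and much of that difference lay in the single gene Col3a1. Col3a1, a fibrillar collagen, had 641.6, 653.1, 815.3 and 547.3 CPM against 2355, 1846, 2386 and 2428 CPM, a difference of -1.76 ± 0.15 (edgeR adjusted p = 3.58e-08). Prrx1 and Pou3f4, transcription factors of mesenchyme, differed by -2.48 and -1.24, and the growth factor receptor Pdgfra by -1.07 (edgeR adjusted p = 8.22e-09, 5.58e-09 and 1.19e-07). The matrix proteoglycan gene Lum was placed within 1.5-fold, at -0.02 ± 0.12 (edgeR adjusted p = 0.921; -0.89 with spike-in scaling). The gene called higher was Col1a1, a collagen of bone and connective tissue chosen after its value was seen, at 0.92 ± 0.29 (edgeR adjusted p = 0.012). No member was called higher without Het FK228 replicate 3, and 2 were without WT solvent replicate 1.

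Endothelium and pericyte genes gave 8 lower and 1 higher of 15 (median -0.50; 13 lower and none higher with spike-in scaling). Emcn, an endothelial sialoprotein, had 18.2, 16.5, 19.9 and 21.3 CPM in Het FK228 and 89.1, 56.2, 54.7 and 54.9 CPM in WT solvent, a difference of -1.75 ± 0.16 (edgeR adjusted p = 5.78e-08). The groups did not overlap, and WT solvent replicate 1 stood above its group. Kcnj8, a pericyte potassium channel, differed by -1.75 (edgeR adjusted p = 2.43e-06). Egfl7, secreted by endothelium, was the higher gene, by 0.76 ± 0.09 (edgeR adjusted p = 9.14e-07), which was -0.12 with spike-in scaling. Pecam1, an adhesion protein of all endothelium, differed by 0.20 ± 0.15 (edgeR adjusted p = 0.255; -0.68 with spike-in scaling).

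Of 16 Schwann cell genes tested, 5 were higher and 6 lower, with a median of -0.44 and none placed within 1.5-fold. Over all genes 24.9% were higher, 25.9% lower and 30.9% within 1.5-fold. With spike-in scaling 1 of the 16 was higher and 10 were lower. The named members were lower: the myelin gene Pmp22 by -1.33, the lipid-binding gene Fabp7 by -1.76, the calcium-binding gene S100b by -0.99 and the neuregulin receptor gene Erbb3 by -0.73 (edgeR adjusted p = 1.39e-07, 3e-06, 4.41e-07 and 7.77e-06). The higher members, chosen after their values were seen, were the transcription factor gene Pou3f1 at 1.95, Gfra3 at 1.21, and the myelin genes Mag at 1.07, Cnp at 0.77 and Prx at 0.70. Melanocyte and stria vascularis genes gave 2 higher and 1 lower of 11 (median 0.20; none higher and 3 lower with spike-in scaling), below the 24.9% and 25.9% of all genes. Mitf, the melanocyte master regulator, differed by 0.67 ± 0.15 (edgeR adjusted p = 0.000973; -0.20 with spike-in scaling). The count of higher genes ran from 1 without Het FK228 replicate 4 or WT solvent replicate 3 to 4 without WT solvent replicate 1. The potassium channel subunit Kcne1, at 0.69 ± 0.38 (edgeR adjusted p = 0.137), was among those called higher without the last library (1.09, adjusted p = 0.0253); it was also called with the 8 libraries fitted alone (adjusted p = 0.0442) and with limma voom (0.02). The pigment gene Pmel, at 0.88 ± 0.30 (edgeR adjusted p = 0.0211), was not called without Het FK228 replicate 4 or WT solvent replicate 3 (adjusted p = 0.0902 and 0.0721), or with the share of reads in no gene as a covariate (0.0665). The single lower gene, Kit, at -0.45 ± 0.15 (edgeR adjusted p = 0.016), was not called without Het FK228 replicate 3 or WT solvent replicate 4 (adjusted p = 0.0516 and 0.0501). Red blood cell genes were at the limit of detection, with 1 of 6 tested: Alas2, a heme synthesis enzyme, at no more than 1.51 CPM in any library of either group (log2 difference 1.85 ± 0.53, edgeR adjusted p = 0.00686; 0.94 and not called with spike-in scaling).

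**Figure D4:**
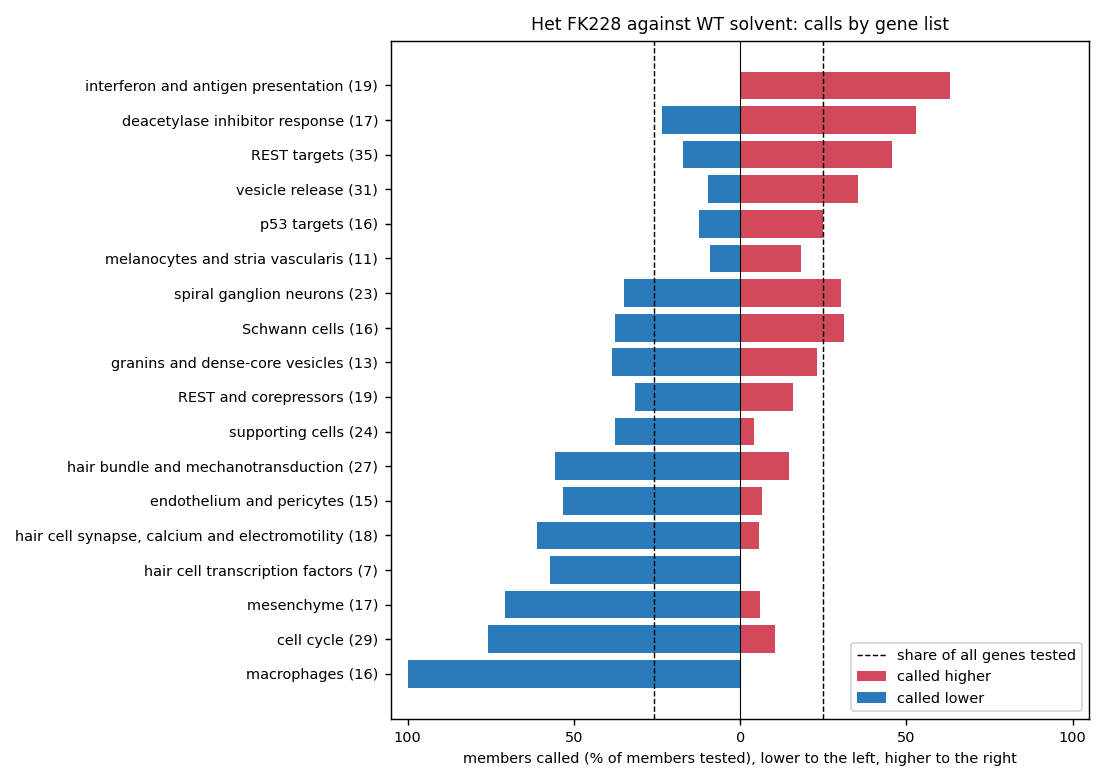
Share of the tested members of each gene list called higher (right) or lower (left) in Het FK228 than in WT solvent, in percent, with the number tested in parentheses. Dashed lines mark the 24.9% called higher and 25.9% called lower of all genes; macrophage genes reach 16 of 16 lower, and interferon genes 12 of 19 higher with none lower.

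Cell cycle genes were lower: 22 of 29 were called lower and 3 higher, with a median of -1.18, and with spike-in scaling 27 were lower and none higher. Mki67, a marker of cycling cells, had 6.05, 5.86, 7.43 and 6.37 CPM in Het FK228 and 15.7, 28.8, 26.6 and 19.1 CPM in WT solvent, a difference of -1.81 ± 0.22 (edgeR adjusted p = 2.68e-06). The groups did not overlap, and the WT solvent libraries varied more. Cyclin A gene Ccna2 differed by -1.91, the replication helicase subunit Mcm3 by -1.18 and the growth regulator Myc by -1.34 (edgeR adjusted p = 1.45e-06, 5.05e-08 and 1.72e-07). Mcm7, another subunit of that helicase, was placed within 1.5-fold at -0.20 ± 0.11 (edgeR adjusted p = 0.143). It was called lower without WT solvent replicate 4 (-0.28, adjusted p = 0.0461), and with the share of reads in no gene (-0.34, adjusted p = 0.00591) or the sex mix (-0.26, adjusted p = 0.0488) as a covariate. The higher genes, chosen after their values were seen, were E2f1 at 0.93, the cyclin E gene Ccne1 at 0.57 and the cyclin D gene Ccnd2 at 0.47. In heterozygous solvent cultures none of the 29 was called.

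Genes known to respond to deacetylase inhibitors gave 9 higher and 4 lower of 17 (median 0.37; 5 higher and 9 lower with spike-in scaling). H1f0, a linker histone of non-dividing cells, had 322.8, 311.1, 278.5 and 285.3 CPM in Het FK228 and 98.5, 90.7, 86.8 and 98.4 CPM in WT solvent. All Het FK228 libraries were about equally high, and the difference was 1.68 ± 0.08 (edgeR adjusted p = 5.3e-11). The linker histone gene Hist1h1c differed by 2.36, the thioredoxin inhibitor gene Txnip by 1.93 and the metallothionein gene Mt1 by 1.81 (edgeR adjusted p = 3.66e-08, 1.27e-09 and 2.4e-09). The lower members, chosen after their values were seen, were the receptor gene Tgfbr2 at -1.04, Klf4 at -0.77, gelsolin gene Gsn at -0.67 and Klf6 at -0.63. Cdkn1a, the p21 inhibitor of cyclin-dependent kinases, was called at 0.33 ± 0.10 (edgeR adjusted p = 0.00909), and this was -0.55 with spike-in scaling.

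REST and its corepressors were among the lists with the smallest distance from WT solvent. Of 19 members, 3 were higher, 6 lower and 9 within 1.5-fold. Over all genes 24.9% were higher, 25.9% lower and 30.9% within 1.5-fold. The median of the list was -0.19, and with spike-in scaling none was higher and 17 lower. Its distance was 0.317 in Het FK228 and 0.109 among WT solvent libraries, beside 0.455 and 0.182 over all genes. Of the deacetylases that FK228 inhibits, Hdac1 had 168.8, 237.9, 199.5 and 166.7 CPM in Het FK228 and 134.7, 128.1, 119.6 and 112.2 CPM in WT solvent. Hdac1 differed by 0.64 ± 0.10 and Hdac3 by 0.52 ± 0.07 (edgeR adjusted p = 3.28e-05 and 7.08e-06), but with spike-in scaling by -0.24 and -0.37. Hdac2 differed by 0.08 ± 0.07 (edgeR adjusted p = 0.338; -0.80 with spike-in scaling). Hmg20b, also on the list of corepressors, was the remaining higher gene, at 0.36 (edgeR adjusted p = 0.0151), chosen after its value was seen. The remodeller Smarca4 and the histone demethylase Kdm5c were lower, by -0.62 and -0.57 (edgeR adjusted p = 2.93e-05 and 0.000257). Kdm5c lies on the X chromosome. Its lowest Het FK228 value, 67.6 CPM, was in replicate 4, the library with the most Y-linked reads. Its highest WT solvent value, 134.7 CPM, was in replicate 4, which had no Y-linked reads. The call of Kdm5c held with the sex mix as a covariate.

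Targets of p53 gave 4 higher and 2 lower of 16, with 10 placed within 1.5-fold (median 0.11; none higher and 15 lower with spike-in scaling). Over all genes 24.9% were higher, 25.9% lower and 30.9% within 1.5-fold, so the share higher was that of the background. Without Het FK228 replicate 2 or WT solvent replicate 4 the higher count was 2. The death receptor gene Tnfrsf10b differed by 0.47 ± 0.12 (edgeR adjusted p = 0.00373; -0.44 with spike-in scaling). Beside it and Cdkn1a, the higher members were the cell death genes Pmaip1 at 1.23 and Bax at 0.22, chosen after their values were seen (edgeR adjusted p = 0.016 and 0.0418). Phlda3 and the receptor gene Eda2r were lower, by -0.79 and -1.60 (edgeR adjusted p = 0.000339 and 0.00684).

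Interferon and antigen presentation genes were higher: 12 of 19 were called higher and none lower, with a median of 0.65; with spike-in scaling 5 were higher and 7 lower, and the median was -0.23. Their summed level was 805.6 to 1032 CPM in Het FK228 and 466.6 to 516 CPM in WT solvent. H2-D1, a class I histocompatibility antigen, had 242.2, 173.9, 141.3 and 145.7 CPM in Het FK228 and 43.9, 56.2, 48.1 and 47.3 CPM in WT solvent. It differed by 1.85 ± 0.16 (edgeR adjusted p = 3.61e-08). The signal transducer Stat2 differed by 1.75, the ubiquitin-like modifier Isg15 by 2.10 and the immunoproteasome subunit Psmb9 by 1.47 (edgeR adjusted p = 1.01e-08, 8.86e-07 and 5.5e-06), and all 4 of these genes stayed higher with spike-in scaling. Irf9, a partner of Stat2, was placed within 1.5-fold at -0.13 ± 0.15 (edgeR adjusted p = 0.485).

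The largest single-gene differences came from genes outside these pathways as well. Among the 12 largest rises, Snx31, a sorting nexin, had 17.1, 18.8, 14.8 and 16.9 CPM in Het FK228 and 0.345 to 0.729 CPM in WT solvent, a difference of 5.16 ± 0.29 (edgeR adjusted p = 2.8e-10). The tight junction gene Cldn10 differed by 4.17, the elongation factor partner Eaf2 by 4.07, Gchfr, which regulates tetrahydrobiopterin synthesis, by 3.98, Nrip3 by 3.57 and the vesicle GTPase Rab26 by 3.4. None of these 6 was called between heterozygous and wild-type cultures in solvent.

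Other large rises varied between heterozygous libraries. Asb1 had 410.3, 196.2, 421.7 and 208 CPM in Het FK228 and 3.08 to 5.98 CPM in WT solvent, a difference of 5.98 ± 1.04 (edgeR adjusted p = 0.000105). In heterozygous solvent libraries it had 430.3, 4.45, 152.5 and 5.07 CPM, so 2 of the 4 lay at the WT solvent level. Tgfbr3, a coreceptor of transforming growth factor beta, had 47.3, 307, 523.1 and 439 CPM in Het FK228, 27.6 to 33.3 CPM in WT solvent, and 387.4, 365.1, 32.6 and 29.5 CPM in heterozygous solvent libraries. Eno1b, a copy of an enolase gene that can share its reads and is therefore uncertain, had 2.90 to 58.0 CPM in Het FK228 and 1.85 to 2.62 CPM in WT solvent. For Tgfbr3 and Eno1b, 1 Het FK228 library lay close to WT solvent.

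Among the 12 largest falls, Timp4, a metalloproteinase inhibitor, differed by -4.85 ± 0.45, with 0.529 to 2.28 CPM in Het FK228 and 32.8 to 52.3 CPM in WT solvent (edgeR adjusted p = 8.96e-08). Dio2, the deiodinase that activates thyroid hormone, had 3.71, 6.07, 3.45 and 2.83 CPM in Het FK228 and 91.9, 105.3, 102.4 and 134.6 CPM in WT solvent. Every WT solvent library was far above every Het FK228 library, by -4.75 ± 0.34 in the log2 difference (edgeR adjusted p = 4.2e-09). Fshb, a subunit of follicle-stimulating hormone, differed by -4.65 and the noncoding RNA gene Dnm3os by -4.17 (edgeR adjusted p = 5.58e-09 and 1.7e-08). Of the other 8, Lyz2, Cx3cr1, Adgre1, C1qc and Csf1r are on the macrophage list, and Fcrls, Cybb and Ptafr are also known in macrophages or microglia.

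**Figure D5:**
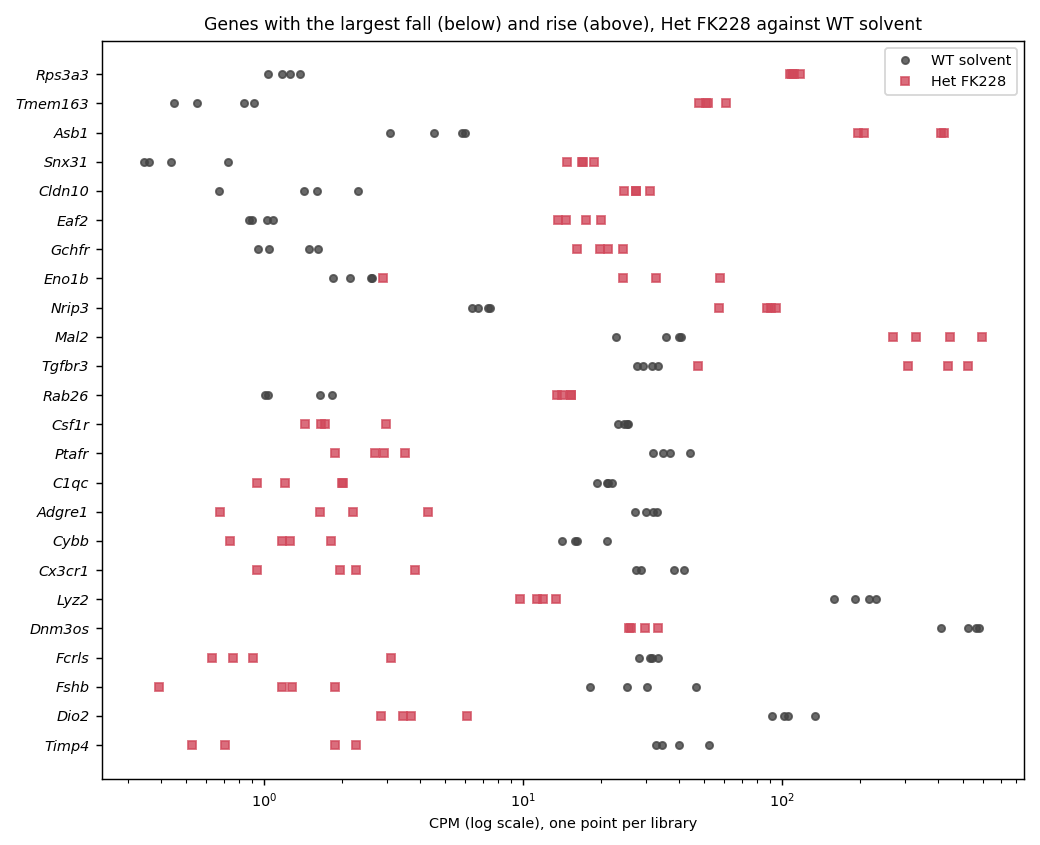
CPM per library, on a log axis, of the genes with the largest rises and falls between Het FK228 (squares) and WT solvent (circles). The 8 points of each gene do not overlap between groups; Tgfbr3 and Eno1b each have 1 Het FK228 library near WT solvent (47.3 and 2.90 CPM).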

How the data were processed

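Per the labels' protocols, RNA of 16 culture pools was reverse transcribed from oligo dT, tagmented and read from both ends. The authors deposited raw counts per gene, 1 file a library; STAR 2.5.2a and GRCm38.p4 are named in the submitters' processing notes. The unstranded column was used, because reads fell evenly on both strand columns, so a gene and an antisense or overlapping neighbour are not told apart. The counts carry no molecular identifiers. The authors' table of normalized values was not used. Spike-in, transgene and summary rows entered neither library sizes nor tests. GENCODE M21 named 48349 of 48709 gene identifiers and gave gene positions.

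Genes were kept by filterByExpr (minimum count 10, total 15), which left 17125. In R 4.3.3, edgeR 4.0.16 fitted a quasi-likelihood model with TMM factors and a mean per group to all 16 libraries, and p-values were adjusted by Benjamini-Hochberg over all genes. An adjusted p under 0.05 is a call. Errors of log2 differences are SEs of the model, and intervals are at 95%. The fitting steps were tested on simulated data. Library measures were compared by exact permutation. No library of either group was a copy of another.

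The compared members, the gene lists and the genes of an earlier account were chosen with earlier results of these data known. Named genes were Rest, the 12 largest rises and falls among called genes with a gene symbol, at least 10 CPM and no overlap, the 4 or fewer members of a list that had the smallest p, all genes of the earlier account, and for each list the most abundant member within 1.5-fold; 1 gene the rule names is not reported here. Alternatives were DESeq2 1.42.0, limma 3.58.1 voom, RLE and spike-in scaling, no filter and a stricter filter, the 8 libraries alone, covariates for sex mix and for reads in no gene, a replicate block, no mitochondrial genes, and each of the 8 libraries left out.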

Additional observations from a re-analysis of the deposited data

Results flagged for a closer look

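Values of single libraries were compared with the other 3 of their group by Dixon's ratio in 256 groups of 4, and 12 stood apart, close to the 1 in 20 that chance gives. WT solvent replicate 1 stood apart in 4 measures: 23611571 gene counts against 17462876 to 18504982, 10.82% of reads in no gene against 16.19% to 16.33%, Emcn at 89.13 CPM against 54.68 to 56.23 CPM, and Syngr3 at 17.54 CPM against 8.469 to 9.194 CPM. WT solvent replicate 2 was low for the mesenchyme genes Col3a1 (1846 CPM against 2355 to 2428 CPM) and Prrx1 (16.62 CPM against 20.16 to 20.51 CPM). WT solvent replicate 4 was high for Psmb9, at 5.574 CPM against 4.038 to 4.292 CPM.

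Het FK228 replicate 5 stood apart in 3 measures: 19.74% of reads in no gene against 17.53% to 17.84%, the cell cycle inhibitor Cdkn1b at 226.6 CPM against 115.9 to 128.9 CPM, and Tnfrsf10b at 136.8 CPM against 119.5 to 122.1 CPM. Cdkn1b of that library lay close to the WT solvent range of 235.4 to 296.2 CPM. Het FK228 replicate 3 was high for Cplx2, at 50.18 CPM against 45.22 to 45.64 CPM, and replicate 4 for Fcrls, at 3.108 CPM against 0.6295 to 0.9073 CPM.

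In rows outside the gene table, reads of the CRE-ERT2 transgene numbered 8, 11, 6 and 8 in the Het FK228 libraries, so at least 6, and 5 to 16 in the heterozygous solvent libraries. There were 0 in each of the 8 wild-type libraries. The labels do not mention this transgene.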

How the results depend on the processing

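Over the 19 alternatives, scaling to spike-in RNA was the choice that moved the whole-table counts by more than 1.5 times: 647 genes were then higher and 12217 lower than in WT solvent (4258 and 4432 with TMM scaling), so that 5.03% of calls were higher in place of 49%, 3927 were beyond 2-fold (1119) and 768 within 1.5-fold (5291). It turned the log2 difference negative for 14 named genes: Cdkn1a (-0.55), Egfl7 (-0.12), Hdac1 (-0.24), Hdac2 (-0.80), Hdac3 (-0.37), Isl1 (-0.82), Mitf (-0.20), Myo6 (-0.61), Pecam1 (-0.68), Snap25 (-0.60), Syp (-0.34), Syt1 (-0.63), Tnfrsf10b (-0.44) and Tsn (-0.63). Which scaling is nearer to the amounts per culture was not tested. Leaving out 1 library at a time gave 7957 to 8361 calls, 976 to 1086 genes beyond 2-fold and 4870 to 5002 within 1.5-fold. Of 123 named genes, 92 kept direction and side of the threshold under every alternative that tested them, and 111 under every one but spike-in scaling. Eno1b lost its call with limma voom (adjusted p = 0.0953). None of the genes under 1 CPM was placed within 1.5-fold; a dependence on depth was not tested.

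Het FK228 and WT solvent libraries share the replicate numbers 2, 3 and 4, but deviations of same-numbered libraries correlated at 0.0233, -0.00502 and -0.0291, so the numbers were not taken as pairs. With the replicate number as a block 7751 genes were called, 3713 higher and 4038 lower. Of the named genes, the block lost the calls of Kit, Myo6 and Syp and added Kcne1.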

Other observations

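The calls differed by gene type. Of 14482 protein-coding genes tested, 25.5% were higher and 28.5% lower in Het FK228 than in WT solvent. Of 662 processed pseudogenes, 23.1% were higher and 7.7% lower, and of 404 long intergenic noncoding RNA genes 23% were higher and 16.1% lower. Reads of a processed pseudogene can be shared with its parent gene, so those shares are uncertain.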
